A study of Homo sapiens with 8 samples.

Results

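The resting expression profile of control HEK293 cells was described from the 2 arrays of the group labelled control without EGF, out of 8 arrays in the series. HEK293 is an established human embryonic kidney line made with adenoviral DNA. The series compared this control line with a line in which ELL, a factor that helps RNA polymerase II elongate transcripts, was stably knocked down by a short hairpin RNA (shELL), each without EGF and after EGF at 50 ng/mL for 1 h, with 2 arrays in each of the 4 groups. Only the unstimulated control arrays enter the values of the report, and the other groups were used only in 2 alternative settings given at the end, a normalisation over all 8 arrays and a probe-set filter. The cells grew in RPMI with fetal calf serum and antibiotics, total RNA was isolated on Qiagen columns, and biotin-labelled cDNA was hybridised to Affymetrix Human Exon ST 1.0 arrays. The labels also call the control line wild type, and nothing in the sources says whether it carries a control hairpin or is a clone. The labels call the arrays biological replicates but do not say whether they came from separate cultures, so the spread between them may be smaller than that between cultures.

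All genes measured by at least 3 probe sets were members, which gave 17587 genes from 279606 of the 287329 probe sets of the files. An exon array reads a gene through many short probe sets along its exons, and the gene level given below is their summary on the log2 scale in each array. A level includes how strongly the probes of that gene bind, so an order between genes is approximate, while the difference between the arrays for 1 gene is free of it. Throughout, a pair of values is replicate 1 and then replicate 2, and n is 2 arrays.

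Microarray probes give some signal without their target, so a floor is needed to read a low level. Olfactory receptor genes, whose products detect odorants in the nose and which most other cells do not use, supplied that floor through 235 measured genes. Their 95th percentile was 1.67 in replicate 1 and 1.22 in replicate 2, and is called the olfactory receptor level. A stricter floor, the 95th percentile of 171 measured markers of other tissues (blood, endothelium, liver, muscle, gut, eye, taste, defensin and cornified envelope genes), was 2.71 and 2.25, and is called the other-tissue level. The stricter floor was chosen after the values were seen. A gene under either floor may still be expressed at a level these probes do not separate from background.

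The promoters of 4 genes are printed as examples of the DNA before the start site of genes high and low in this profile. Each holds the 250 bases before the RefSeq start site of GRCh38.p14, 5′ to 3′ on the gene's own strand, and capitals mark CpG dinucleotides. TUBA1B, an alpha-tubulin among the highest genes, lies at chr12:49131396-49131645 on the minus strand with 38 CpGs. TUBA1C, an alpha-tubulin gene of the same chromosome that also ranked among the 30 highest, lies at chr12:49227676-49227925 on the plus strand with 1 CpG. IRS4, an insulin receptor substrate, lies at chrX:108736564-108736813 on the minus strand with 16 CpGs. ALB, serum albumin of hepatocytes, lies at chr4:73404037-73404286 on the plus strand with 3 CpGs. ALB was chosen for display after its values were seen. The CpG numbers of these windows do not follow the levels throughout, since TUBA1C has fewer CpGs than ALB.
TUBA1B: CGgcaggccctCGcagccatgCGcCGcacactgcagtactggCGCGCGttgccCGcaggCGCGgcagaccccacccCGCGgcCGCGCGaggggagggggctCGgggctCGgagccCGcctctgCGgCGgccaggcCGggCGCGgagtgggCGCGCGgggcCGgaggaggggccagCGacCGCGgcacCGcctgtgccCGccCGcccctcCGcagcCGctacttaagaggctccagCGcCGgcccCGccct
TUBA1C: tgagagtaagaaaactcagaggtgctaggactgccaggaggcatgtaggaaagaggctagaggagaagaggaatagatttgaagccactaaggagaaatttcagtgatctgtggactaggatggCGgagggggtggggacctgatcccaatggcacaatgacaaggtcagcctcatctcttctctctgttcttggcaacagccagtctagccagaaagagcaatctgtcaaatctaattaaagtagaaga
IRS4: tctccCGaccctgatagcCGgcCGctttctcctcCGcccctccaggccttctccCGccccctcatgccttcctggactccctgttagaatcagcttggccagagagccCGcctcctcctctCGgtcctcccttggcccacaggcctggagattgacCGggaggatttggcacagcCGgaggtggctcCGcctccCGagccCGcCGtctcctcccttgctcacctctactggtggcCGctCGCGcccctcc
ALB: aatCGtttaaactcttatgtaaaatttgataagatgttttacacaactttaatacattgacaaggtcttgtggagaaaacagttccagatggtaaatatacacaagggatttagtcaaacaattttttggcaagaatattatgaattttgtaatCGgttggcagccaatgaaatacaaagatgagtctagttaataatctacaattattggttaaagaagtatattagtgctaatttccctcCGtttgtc
The GC content of these stretches was 81.2% in TUBA1B, 47.2% in TUBA1C, 68% in IRS4 and 30% in ALB. TUBA1B stood at 10.31 and 10.46 and TUBA1C at 9.11 and 9.61, so TUBA1B was the higher in each array. Their probe sets may not resolve the 2 genes. Both ranked among the 30 highest, and the printed windows were very unequal in CpG number. By distance from TUBA1B, the TUBA1C probe sets lie well downstream of the RefSeq start used for its window. Whether that start is used in these cells was not tested. IRS4 stood at 4.73 and 4.88, above both floors, and ALB at 1.35 and 0.62, under both.

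The arrays gave nearly the same order of genes. Across genes, which are not independent replicates, the levels correlated at r = 0.972 (Pearson) and 0.963 (Spearman), against r = 0.887 for single probe sets. The median absolute difference of a gene between the arrays was 0.25, 82.1% of genes lay within 0.5 and 98.3% within 1, and 304 genes lay more than 1 apart. Of the 30 highest genes of each array 25 were shared, of the 100 highest 81, and of the 500 highest 420. Before normalisation the arrays differed in spread, with a median of 1.83 in replicate 1 and 2.44 in replicate 2, and gene medians after it were 2.12 and 2.02. By class, 67.7% of constitutive machinery genes were higher in replicate 2 against 39.5% of all genes and 24.4% of markers of other tissues.

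Of all genes, 10893 (61.9%) were above the olfactory receptor level in both arrays, 6043 (34.4%) were above the other-tissue level in both, and 752 (4.28%) were in the highest 5% of each array. The genes above the stricter floor had a median level of 3.78, and a median of 63.6% of their probe sets was above the same floor set over olfactory receptor probe sets. The 4850 genes that passed the olfactory receptor level in both arrays but not the stricter floor in both, called the middle tier, had a median of 2.14 and 28.6% of probe sets above. A further 1832 genes passed the olfactory receptor level in 1 array only, and 4862 passed it in neither, with a median level of 0.78. The percentile of a gene moved by a median of 2.38 points between the arrays above the stricter floor and by 5.79 in the middle tier, so an order among low genes rests on less. At the olfactory receptor level itself, TIE1 (1.76 and 1.22), PGPEP1 (1.67 and 1.62) and TGM2 (1.67 and 1.56) were just inside it. NFKBIL1 (1.67 and 1.41), PRH2 (1.67 and 1.63) and B3GAT1 (1.69 and 1.22) were just outside.

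The gene classes are given from the highest median to the lowest. The order of signalling (56.3% above the lower floor) and identity (48.4%) is not settled. The identity share had an SD of 11.5 points between the arrays. The alternative settings given at the end cover only machinery, proliferation, identity and other tissues. Constitutive machinery had 304 of 313 measured genes above the olfactory receptor level and 283 above the other-tissue level, with a median of 5.70 against 2.07 over all genes. Proliferation genes followed with 95 and 78 of 101 and a median of 3.81. Transcriptional regulators had 118 and 66 of 154 (median 2.43), signalling genes 120 and 60 of 213 (1.82), and cell identity genes 92 and 46 of 190 (1.57). The markers of other tissues had 50 and 7 of 171, at a median of 1.09; their own 95th percentile sets the stricter floor, so the 7 are given as a description. Olfactory receptors had a median of 0.60. The shares of all genes above the lower and the stricter floor, 61.9% and 34.4%, are those to set beside every list count below. Genes named below are the highest and lowest members of each list or, for regulators, signalling and identity, members of any level.

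**Figure D1:**
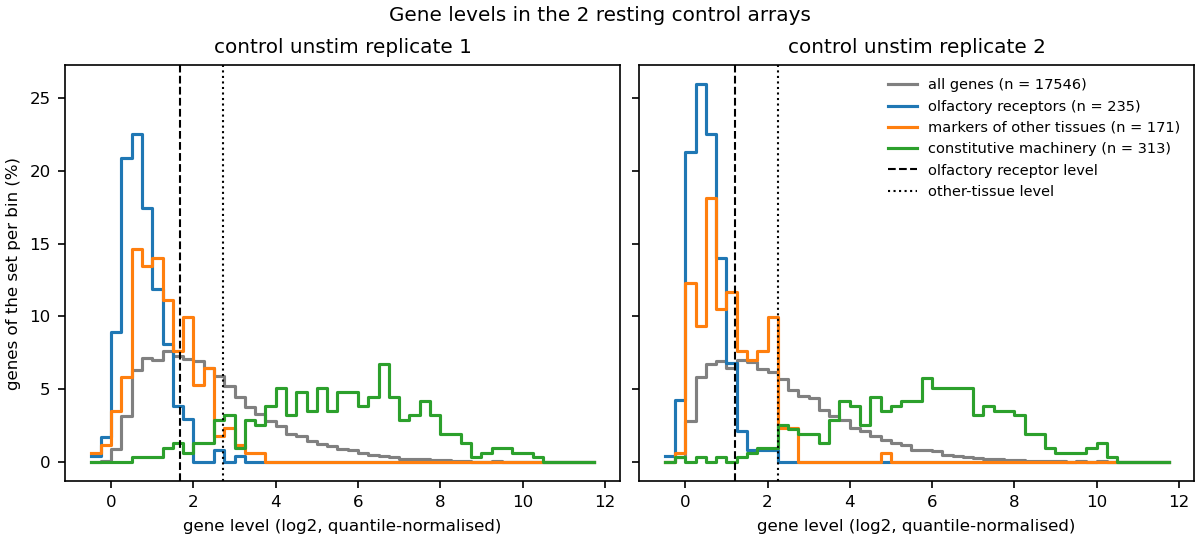
Distribution of gene levels (x axis, log2 after quantile normalisation; y axis, percent of the genes of each set per bin) in each of the 2 resting control arrays, with dashed and dotted lines at the olfactory receptor level and the other-tissue level. Olfactory receptors pile up near 0.60, machinery genes spread around 5.70, and markers of other tissues overlap both the olfactory receptors and the lower part of all genes; 41 genes, Y-linked or of X inactivation, are left out of the plot.

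The highest genes were those that every cell uses for respiration, protein synthesis and shape. The 8 measured genes of mitochondrial DNA were all among the 200 highest and 5 were among the 30 highest. COX2, the array's symbol for mitochondrially encoded cytochrome c oxidase subunit II and not for the prostaglandin synthase, ranked highest at 11.59 and 11.42. COX1, subunit I of the same enzyme, was at 10.88 and 11.08, and ND5, a subunit of complex I, was at 10.46 and 10.51. These are levels of short intronless transcripts on few probe sets, 3 for COX2 and 5 for COX1. Among nuclear genes CSNK2B, the regulatory subunit of casein kinase 2, was highest at 10.90 and 10.07, the widest gap among the 10 highest genes. The other nuclear genes near the top held their place more closely: TUBA1B as above, the beta-tubulin TUBB at 10.03 and 10.10, the ribosomal protein RPL5 at 9.97 and 10.15, and the elongation factor EEF1A1 at 10.04 and 10.02. C14orf156 (10.06 and 9.52), MYL12B (9.16 and 9.56), a regulatory light chain of myosin, RNASEK (9.48 and 8.91), a ribonuclease, ARL6IP1 (9.32 and 9.05), SSR2 (9.17 and 9.02), a subunit of the translocon-associated complex of the endoplasmic reticulum, and FTH1 (8.62 and 9.25), ferritin heavy chain, were also among the 30 highest genes outside the fixed lists. Lists of constitutive machinery held 15 of the 30 highest genes and 45 of the 100 highest.

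Cytosolic ribosomal proteins, which form the subunits of the ribosome, were the highest list at a median of 6.44. Of 71 measured, 69 were above the olfactory receptor level, 65 above the stricter floor and 50 in the highest 5%. RPL5, RPL10 (9.90 and 9.85), RPL8 (9.30 and 9.78), RPL37 (9.29 and 9.72) and RPS28 (9.70 and 9.30) led. RPS21 (1.41 and 1.79), RPL29 (1.24 and 2.05) and RPL37A (2.31 and 1.80) were at the other end, although the ribosome holds these proteins in equal number. Levels within the list therefore spanned most of the range of the array. Ribosomal protein genes have many processed pseudogenes, the annotation places RPS28 on chromosome 11, and RPL13AP20 (8.75 and 8.81) and EEF1A1P9 (9.80 and 9.65), both named as pseudogenes, were in the 30 highest, so reads of one copy and another cannot be told apart here.

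Translation factors, which start and drive protein synthesis on the ribosome, were all above the stricter floor (35 of 35, median 5.80). EEF1A1 led, followed by the start-site factor EIF1 (8.11 and 8.74), the translocase EEF2 (8.0 and 8.38), the helicase EIF4A1 (7.42 and 8.07) and EEF1G (7.62 and 7.46), a subunit of elongation factor 1. The cap-binding protein EIF4E was lowest at 2.97 and 3.48, still above the floor in each array. Splicing factors and hnRNPs, which process nascent transcripts, were also complete at 39 of 39 (median 5.94). The RNA-binding proteins HNRNPC (7.70 and 8.45), HNRNPK (7.65 and 7.63) and HNRNPA2B1 (7.41 and 7.77) were among its highest with SRSF1 (7.72 and 8.18) and PTBP1 (7.75 and 7.79), which promote and repress exon use. SNRPD2, a core snRNP protein, was lowest at 2.82 and 2.41.

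Protein folding and breakdown were represented in full at the lower floor. All 27 chaperones were above the olfactory receptor level and 26 above the stricter floor, at a median of 6.28. HSPA8, the constitutive HSP70 protein, led at 9.61 and 10.04, and the others near the top were CANX (8.35 and 8.68), a lectin chaperone of the endoplasmic reticulum, HSP90AB1 (7.99 and 8.63), PPIB (7.77 and 8.20) and CCT5 (7.22 and 8.02). HSPE1, the mitochondrial co-chaperonin, was lowest at 2.26 and 2.43. All 30 proteasome subunits were above the olfactory receptor level and 29 above the stricter floor, at a median of 4.96. PSMA1 (8.02 and 8.34), PSMB2 (7.91 and 8.05) and PSMA6 (7.66 and 7.64), subunits of the core particle, were highest, and PSMA5, of the same ring as PSMA1, was lowest at 2.17 and 2.46.

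Energy metabolism was high with some members near background. Of 17 glycolysis genes 16 were above the olfactory receptor level and 14 above the stricter floor, at a median of 5.88. The enolase ENO1 (9.55 and 9.94) was highest, with the lactate dehydrogenase subunits LDHB (9.33 and 9.48) and LDHA (9.15 and 9.01) next to it. GAPDH, often used as a reference gene, was at 7.82 and 8.93, so it differed by more than 1 between the arrays, and ACTB, another reference gene, was at 8.69 and 8.74. The isoform genes ENO2 (2.62 and 2.75) and ALDOC (1.58 and 1.76), typical of neurons, were the lowest of the list. Of 38 nuclear genes of the respiratory chain, 36 were above the olfactory receptor level and 32 above the stricter floor (median 4.57). ATP5F1B (8.30 and 8.38) and ATP5F1C (8.03 and 7.77), catalytic-head subunits of ATP synthase, COX5A (7.88 and 8.0) and SDHC (7.92 and 7.72) led. NDUFB3 (1.67 and 1.38), UQCRH (1.54 and 2.78) and NDUFV2 (1.72 and 2.69) were lowest.

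The cytoskeleton list was above the olfactory receptor level throughout (22 of 22, 20 above the stricter floor, median 6.38). ACTG1, cytoplasmic gamma-actin, was at 8.93 and 9.04, beside the tubulins given above. Tubulin genes share long stretches of sequence, which their probe sets may not resolve. Nucleolar and ribosome assembly factors had 17 of 17 above the lower floor and 12 above the stricter one (median 4.33). FBL, the methyltransferase fibrillarin, was highest at 7.60 and 8.19, and GNL3, nucleostemin, lowest at 2.17 and 2.45. NPM1 (5.76 and 6.81) and NCL (5.13 and 6.14), abundant nucleolar proteins, each lay more than 1 higher in replicate 2.

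Histone genes were the exception within the machinery, with 13 of 17 above the olfactory receptor level and 11 above the stricter floor (median 4.24). The linker histone H1-4 (6.95 and 7.60) and the replacement histone H3-3B (6.98 and 7.23) were high. The linker histone H1-5 (0.79 and -0.06) and H2AC6 (0.54 and 0.46) were near background in both arrays. Most messages of replication-dependent histones lack a poly(A) tail and the genes are near-identical, both of which bear on how such a level can be read, and their part in these values was not tested.

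Proliferation genes were broadly above the floors, at 94.1% and 77.2% of the class against 61.9% and 34.4% of all genes. Of 35 mitosis genes 33 were above the olfactory receptor level and 30 above the stricter floor (median 4.48). CDC20, an activator of the anaphase-promoting complex, was at 6.32 and 6.06, the kinase PLK1 at 5.93 and 6.11, the topoisomerase TOP2A at 5.78 and 6.16, the spindle midzone protein PRC1 at 5.64 and 5.91, and CDK1 at 5.91 and 5.63. The kinesin CENPE (1.16 and 1.14) and the kinetochore protein NDC80 (1.33 and 1.80) were the lowest, so the list did not hold without exception. Of 37 genes for DNA replication and nucleotide supply 35 were above the lower floor and 29 above the stricter one (median 3.81). The helicase subunit MCM7 (6.07 and 6.50), thymidylate synthase TYMS (5.46 and 5.66) and both ribonucleotide reductase subunits, RRM1 (5.50 and 5.44) and RRM2 (5.53 and 5.39), led, and ORC6 of the origin recognition complex was near background at 0.98 and 0.94.

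Of 29 G1 cyclins, CDKs and their inhibitors, 27 were above the olfactory receptor level and 19 above the stricter floor (median 3.37). The G1 kinase CDK4 led at 6.22 and 6.29. The ubiquitin ligase MDM2 was at 5.85 and 6.0. CDK2 (5.40 and 4.93) and the D-type cyclin CCND2 (5.15 and 5.04) were also high. The lowest 3 were RBL1 (1.87 and 2.34), a pocket protein related to RB, MDM4 (1.51 and 2.55) and CDKN2D (1.62 and 2.0).

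**Figure D2:**
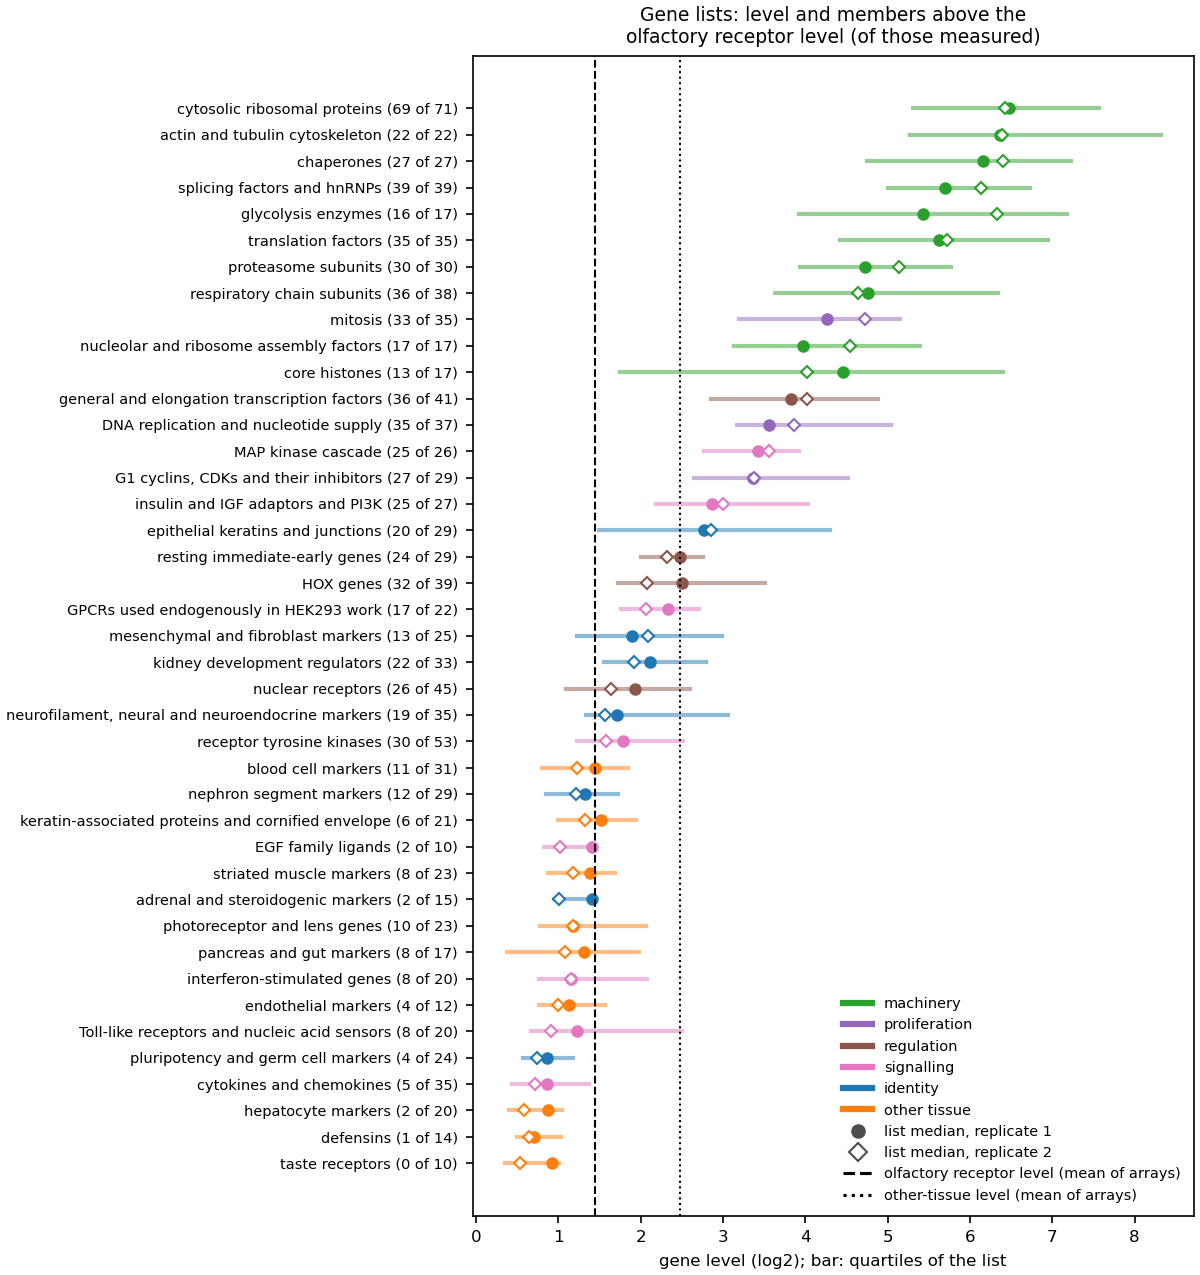
Median level of each of the 41 gene lists in each array (filled circle replicate 1, open diamond replicate 2; x axis, log2) with the quartiles of the list as a bar, coloured by class, and the number of members above the olfactory receptor level in both arrays beside each name. Cytosolic ribosomal proteins (69 of 71) and the cytoskeleton (22 of 22) lie at the top, and cytokines (5 of 35), hepatocyte markers (2 of 20), defensins (1 of 14) and taste receptors (0 of 10) at the bottom.

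The transcription apparatus in which ELL works was mostly above the floors. Of 41 general and elongation factors 36 (87.8%) were above the olfactory receptor level and 31 (75.6%) above the stricter floor (median 3.98). The shares of all genes were 61.9% and 34.4%. The RNA polymerase II subunits POLR2H (7.54 and 7.68) and POLR2L (7.09 and 6.31), both shared with other RNA polymerases, were highest, and the catalytic subunit POLR2A was at 4.13 and 4.50. The pause-release kinase CDK9 (4.73 and 5.36), its cyclin CCNT1 (4.0 and 3.95) and its inhibitor HEXIM1 (4.20 and 4.46) were above both floors. ELL itself, the target of the knockdown line, was at 2.29 and 2.28, in the middle tier and above the stricter floor in replicate 2 only, with 7 of its 20 probe sets above the probe-set floor. Its paralogue ELL2 was higher at 2.95 and 2.68, and ELL3 was at 2.35 and 2.0. The ELL-associated factors stood apart from each other, with EAF1 at 4.62 and 5.16 and EAF2 near background at 0.91 and 0.82. GTF2E2 (1.03 and 0.81), a subunit of the general factor TFIIE, and LARP7 (0.97 and 1.07), which binds the RNA that holds P-TEFb inactive, were also near background, although both belong to complexes that most cells use.

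The list of immediate-early genes, which growth factors induce within minutes without new protein synthesis, also held their regulators SRF, ELK1, ELK3 and ELK4. Of its 29 genes, 24 (82.8%) were above the olfactory receptor level and 10 (34.5%) above the stricter floor, against 61.9% and 34.4% of all genes. The list median was 2.42 against 2.07 over all genes, and 0 members were in the highest 5%. JUN (4.64 and 4.53), an AP-1 subunit, and the zinc-finger factor EGR1 (4.13 and 3.76) were the highest inducible members. SRF (3.71 and 4.04), which binds the serum response element, and its cofactors ELK1 (3.62 and 3.18), ELK4 (3.29 and 3.08) and ELK3 (3.09 and 2.40) were above both floors. The share of the other members above the stricter floor was therefore lower than that of the list. FOS, the AP-1 partner of JUN, was at 2.38 and 1.72, FOSB at 2.62 and 2.32, JUNB at 2.22 and 2.26 and IER2 at 2.94 and 1.91, all in the middle tier. Of these, IER2 passed the stricter floor in replicate 1 only, and FOSB and JUNB in replicate 2 only. The orphan receptors NR4A1 (2.47 and 2.36) and NR4A2 (1.93 and 1.92) were in the same range, and NR4A3 (1.28 and 1.32) lower. MYC (0.89 and 1.32) and KLF4 (0.93 and 1.28) were the lowest, each passing the floor in replicate 2 only. MYC rests on 6 probe sets, 1 of them above the probe-set floor.

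HOX genes, which encode homeodomain factors of body position, had 32 of 39 (82.1%) above the olfactory receptor level and 14 (35.9%) above the stricter floor (median 2.31). The stricter share was near the 34.4% of all genes. The HOXA cluster had 10 of 11 members above the lower floor and 5 above the stricter one, HOXB 9 and 2 of 10, HOXC 6 and 2 of 9, and HOXD 7 and 5 of 9. HOXA7 (5.50 and 5.16) and HOXB9 (5.10 and 4.67) led, followed by HOXD10 (3.83 and 4.77), HOXB2 (4.29 and 3.88) and HOXD11 (4.14 and 3.76). HOXB13 (0.58 and 0.44), HOXC5 (0.71 and 0.56) and HOXC11 (1.07 and 0.98) were near background. High and background members lay within 1 cluster, as with HOXC9 (3.96 and 2.90) and HOXC11.

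Nuclear receptors, ligand-controlled transcription factors, had 26 of 45 (57.8%) above the lower floor and 11 (24.4%) above the stricter one (median 1.74). Over all genes the shares were 61.9% and 34.4%. The COUP factors NR2F2 (5.35 and 5.01), NR2F6 (4.04 and 4.28) and NR2F1 (3.75 and 3.61) were among the highest 5 with the glucocorticoid receptor NR3C1 (3.56 and 4.12) and NR2C2 (3.65 and 3.95). The receptors for oestrogen, ESR1 (1.26 and 0.83) and ESR2 (0.95 and 0.70), and progesterone, PGR (1.03 and 0.92), were near background in both arrays.

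EGF acts through receptor tyrosine kinases of the ERBB family, which recruit adaptors and activate RAS and the MAP kinase cascade, and HEK293 cells are widely used to study such pathways. Of the 4 ERBB receptors, ERBB2 (3.09 and 2.76), which has no known ligand of its own, was the only one above both floors. EGFR, the receptor for EGF, was at 2.07 and 2.02 with 4 of 36 probe sets above the probe-set floor, and ERBB4 was at 1.97 and 2.11, so their ranges overlapped and the order between them is not settled. ERBB3 (1.30 and 1.14) was near background. Over all receptor tyrosine kinases 30 of 53 (56.6%) were above the olfactory receptor level and 13 (24.5%) above the stricter floor (median 1.68). Both shares were under the 61.9% and 34.4% of all genes. The ephrin receptor EPHA7 (5.57 and 5.50) and the WNT co-receptor RYK (5.37 and 5.44) led, then IGF1R (3.54 and 3.88), MET (3.70 and 3.68), the receptor for hepatocyte growth factor, and EPHA4 (3.74 and 3.31). ROS1 (0.83 and 0.38), TEK (0.65 and 0.56), the angiopoietin receptor, and EPHA6 (0.96 and 0.42) were lowest.

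The ligands of the family were near background for the most part, with 2 of 10 (20%) above the lower floor and 0 above the stricter one. Among all genes these shares were 61.9% and 34.4%. HBEGF was highest at 2.45 and 3.0, and NRG2 was at 2.06 and 1.88. EGF (1.17 and 0.81), TGFA (0.68 and 0.63), AREG (1.51 and 1.01) and EREG (0.88 and 0.66), all ligands of EGFR, were under the floor in both arrays. The cascade below the receptors was well above it: 25 of 26 genes (96.2%) passed the lower floor and 19 (73.1%) the stricter one (median 3.48). The GTPase NRAS (6.65 and 6.96) led, above HRAS (3.47 and 3.61). The phosphatase PTPN11 (5.34 and 5.49) and the kinase MAP2K1 (3.94 and 4.26) were also well above both floors. MAPK3, an ERK kinase, was at 3.83 and 3.79, GRB2 at 4.01 and 3.90, and only MAPK10, a JNK kinase typical of neurons, was near background (0.65 and 0.41).

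**Figure D3:**
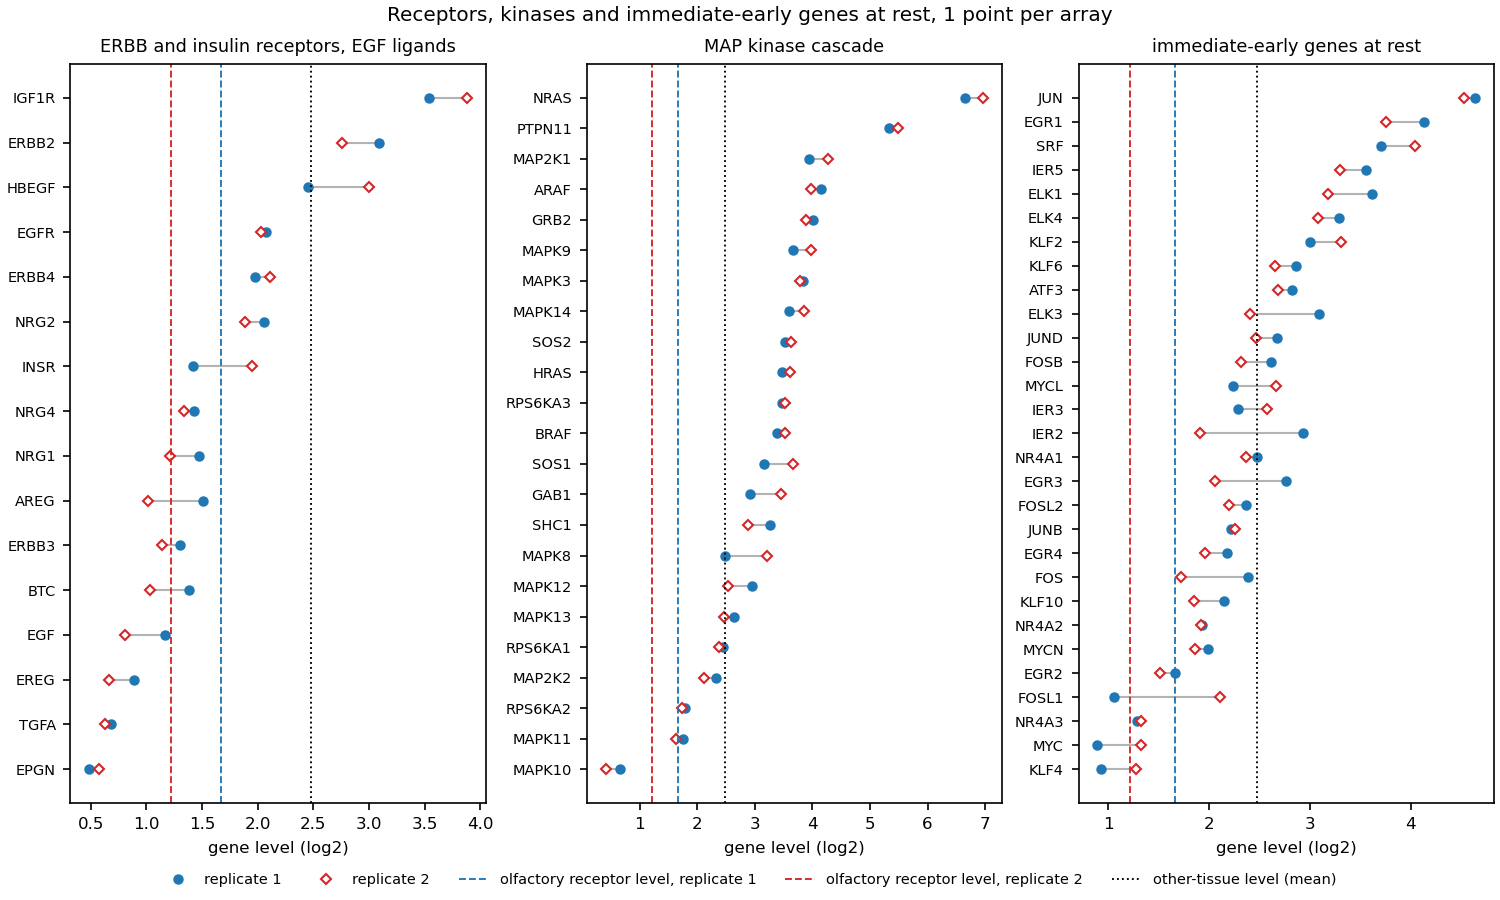
Levels (x axis, log2; blue circle replicate 1, red diamond replicate 2, joined by a grey line) of ERBB and insulin receptors with EGF ligands, of the MAP kinase cascade and of immediate-early genes at rest, with both olfactory receptor levels as dashed lines and the mean other-tissue level as a dotted line. The ligands other than HBEGF and NRG2 cluster at or under the floor, 25 of 26 cascade genes lie above it, some of them not drawn, and immediate-early genes run from JUN above both floors to KLF4 near the lower one.

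Insulin and IGF signalling through PI3K had 25 of 27 genes (92.6%) above the lower floor and 15 (55.6%) above the stricter one (median 3.14). The shares of all genes were 61.9% and 34.4%. AKT2 led at 5.63 in each array, with IRS4 (4.73 and 4.88), PDPK1 (4.69 and 4.86), AKT1 (4.75 and 4.67) and MTOR (4.04 and 4.37) next. IRS4, an insulin receptor substrate of narrow tissue range that was purified from HEK293 cells, was above IRS1 (2.08 and 1.98) and IRS2 (2.24 and 2.15), the substrates of most tissues. The values come from different probe sets, and in each array IRS4 was more than 2 above the others. The insulin receptor INSR (1.42 and 1.95) passed the floor in replicate 2 only, below IGF1R in each array. PIK3CG (0.58 and 0.72) and PIK3CD (1.29 and 1.10), PI3K subunits typical of leukocytes, were the 2 members near background.

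G protein-coupled receptors that HEK293 work draws on had 17 of 22 (77.3%) above the lower floor and 6 (27.3%) above the stricter one (median 2.13). Over all genes the shares were 61.9% and 34.4%. The sphingosine-1-phosphate receptor S1PR3 (5.10 and 4.35), the lysophosphatidic acid receptor LPAR1 (4.40 and 4.82), the thrombin receptor F2R (3.78 and 3.80), the chemokine receptor CXCR4 (3.89 and 3.59) and the trypsin-activated F2RL1 (3.12 and 4.29) led. S1PR1 (1.00 and 0.57), another sphingosine-1-phosphate receptor, was the lowest and near background.

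Among innate immune genes, several that relay signals were above both floors, while most of the sensors named here were near background. Of 20 Toll-like receptors and nucleic acid sensors 8 (40%) were above the lower floor and 5 (25%) above the stricter one (median 1.02), against 61.9% and 34.4% of all genes. STING1 (4.61 and 3.62), MYD88 (3.99 and 3.93), MAVS (3.19 and 3.28), TBK1 (2.80 and 3.31) and IRF3 (3.21 and 2.53), which relay signals, were the 5. The receptors TLR4 (0.47 and 0.50), TLR2 (0.91 and 0.46) and TLR3 (0.80 and 0.72), the DNA sensor CGAS (0.61 and 0.64) and the RNA sensors IFIH1 (0.83 and 0.54) and RIGI (1.43 and 0.92) were under the floor. TLR9 (1.94 and 2.03) was the only Toll-like receptor above it. Interferon-stimulated genes had 8 of 20 above the lower floor and 1 above the stricter one, with the RNA-binding IFIT1 at 0.94 and 0.21 and IFI44 at 0.49 and 0.21. Cytokines and chemokines had 5 of 35 above the lower floor: CSF3 (2.94 and 3.28), CCL2 (2.51 and 3.03), CSF1 (2.49 and 2.45), LIF (1.99 and 1.77) and IL11 (2.21 and 1.35). CSF3, granulocyte colony-stimulating factor, was the only one above the stricter floor, and IL18 (-0.06 and -0.04), IL2 (0.38 and 0.10) and IL7 (0.29 and 0.19) were the lowest.

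The label of embryonic kidney cells was set against markers of several tissues. Regulators of kidney development had 22 of 33 (66.7%) above the olfactory receptor level and 8 (24.2%) above the stricter floor (median 1.99), against 61.9% and 34.4% of all genes, so the list as a whole did not stand above other genes. SIX4 (5.00 and 5.05), SALL1 (3.95 and 4.15), FOXC1 (3.97 and 3.45), GATA3 (3.65 and 3.01), SIX2 (3.59 and 2.72), POU3F3 (3.13 and 3.03) and SIX5 (2.88 and 2.39) were among the 8. SIX2 and SALL1 encode factors of the nephron progenitor. PAX2 (2.19 and 2.10), WT1 (2.11 and 1.86) and LHX1 (2.60 and 2.34), also needed for the kidney, were in the middle tier (LHX1 above the stricter floor in replicate 2 only), with 7 of 22 PAX2 probe sets above the probe-set floor. PAX8 (1.56 and 1.49) passed the lower floor in replicate 2 only, with 0 of 18 probe sets above, and RET (1.29 and 0.99), the receptor for GDNF, was near background.

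Markers of the differentiated nephron had 12 of 29 (41.4%) above the lower floor and 3 (10.3%) above the stricter one (median 1.29), both under the shares of all genes. These were FXYD2 (3.72 and 3.64), a subunit of the sodium pump, PODXL (3.83 and 3.49), a sialomucin of podocytes, and ATP6V1B1 (2.81 and 2.28), a proton pump subunit of intercalated cells. Uromodulin UMOD (1.18 and 1.09) of the thick ascending limb, cubilin CUBN (0.69 and 0.53) of the proximal tubule, the transporter SLC12A1 (0.72 and 0.30) and the calcium-binding protein CALB1 (0.58 and 0.37) were near background.

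The line has been likened to neural and adrenal cells in earlier work. Neural and neuroendocrine markers had 19 of 35 (54.3%) above the lower floor and 9 (25.7%) above the stricter one (median 1.70), also under the shares of all genes. UCHL1, a ubiquitin hydrolase of neurons, was at 6.24 and 6.45, the highest of all identity genes. VIM (5.55 and 6.11), which mesenchymal and many cultured cells also make, TUBB3 (4.71 and 4.64), SOX11 (4.22 and 4.48), NCAM1 (4.38 and 3.91), SOX4 (3.61 and 3.28) and RBFOX2 (3.73 and 4.06) were above both floors. Of the neuronal intermediate filaments, INA (4.09 and 4.30) and NEFL (3.54 and 3.62) were above both floors, while NEFM (1.60 and 1.56) and NEFH (1.59 and 1.48) passed the lower floor in replicate 2 only. Other neuronal markers were split. Doublecortin DCX (0.59 and 0.47), the synaptic vesicle protein SYT1 (0.76 and 0.69) and ELAVL4 (0.80 and 0.41) were near background. SYN1 (2.25 and 2.13), MAP2 (2.20 and 1.49) and MAPT (1.69 and 1.38) were in the middle tier. Adrenal and steroidogenic markers had 2 of 15 above the lower floor, TH (1.92 and 2.18), the rate-limiting enzyme of catecholamine synthesis, and NR5A1 (2.06 and 1.70), and 0 above the stricter one. CYP11A1 (0.47 and 0.65) and STAR (0.90 and 1.01), which start steroid synthesis, were under the floor.

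Epithelial keratins and junction genes had 20 of 29 (69.0%) above the lower floor and 15 (51.7%) above the stricter one (median 2.88), against 61.9% and 34.4% of all genes. The simple-epithelium keratins KRT8 (5.92 and 5.75) and KRT18 (4.28 and 4.95), the adhesion molecule EPCAM (4.49 and 5.21), desmoplakin DSP (4.29 and 5.21), DSC2 (4.58 and 4.82) and CLDN7 (5.02 and 4.09) were high. E-cadherin CDH1 (1.41 and 1.59) and the epithelial factors ESRP1 (1.30 and 1.64) and GRHL2 (0.83 and 0.43) did not pass the lower floor in both arrays. ESRP2 (3.27 and 2.85), related to ESRP1, was above both floors. KRT19 (2.67 and 2.69) and KRT17 (2.15 and 2.42) were in the middle tier, above the stricter floor in replicate 2 only. Mesenchymal markers had 13 of 25 (52%) above the lower floor, under the 61.9% of all genes. Above the stricter one were 9 (36%), near the 34.4% of all genes, and the list median of 2.07 was that of all genes. N-cadherin CDH2 (5.89 and 5.45), SPARC (5.28 and 4.95) and fibronectin FN1 (4.63 and 4.51) led, and ZEB1 (2.95 and 3.03), a repressor of E-cadherin, was above both floors. The fibroblast matrix genes DCN (0.78 and 0.10), LUM (0.37 and 0.47) and POSTN (0.53 and 0.21) and the membrane protease FAP (0.50 and 0.17) were near background.

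Pluripotency and germ cell markers had 4 of 24 (16.7%) above the lower floor and 2 (8.33%) above the stricter one (median 0.76). Both shares were under the 61.9% and 34.4% of all genes. UTF1 (2.89 and 3.10) and the cancer-testis gene CTAG2 (2.97 and 2.49) were the 2, and LIN28B (2.46 and 2.97) and LEFTY1 (1.90 and 2.58) were in the middle tier, above the stricter floor in replicate 2 only. NANOG (0.60 and 0.75), POU5F1 (1.53 and 0.97) and ZFP42 (0.74 and 0.58), markers of embryonic stem cells, were under the lower floor in both arrays.

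**Figure D4:**
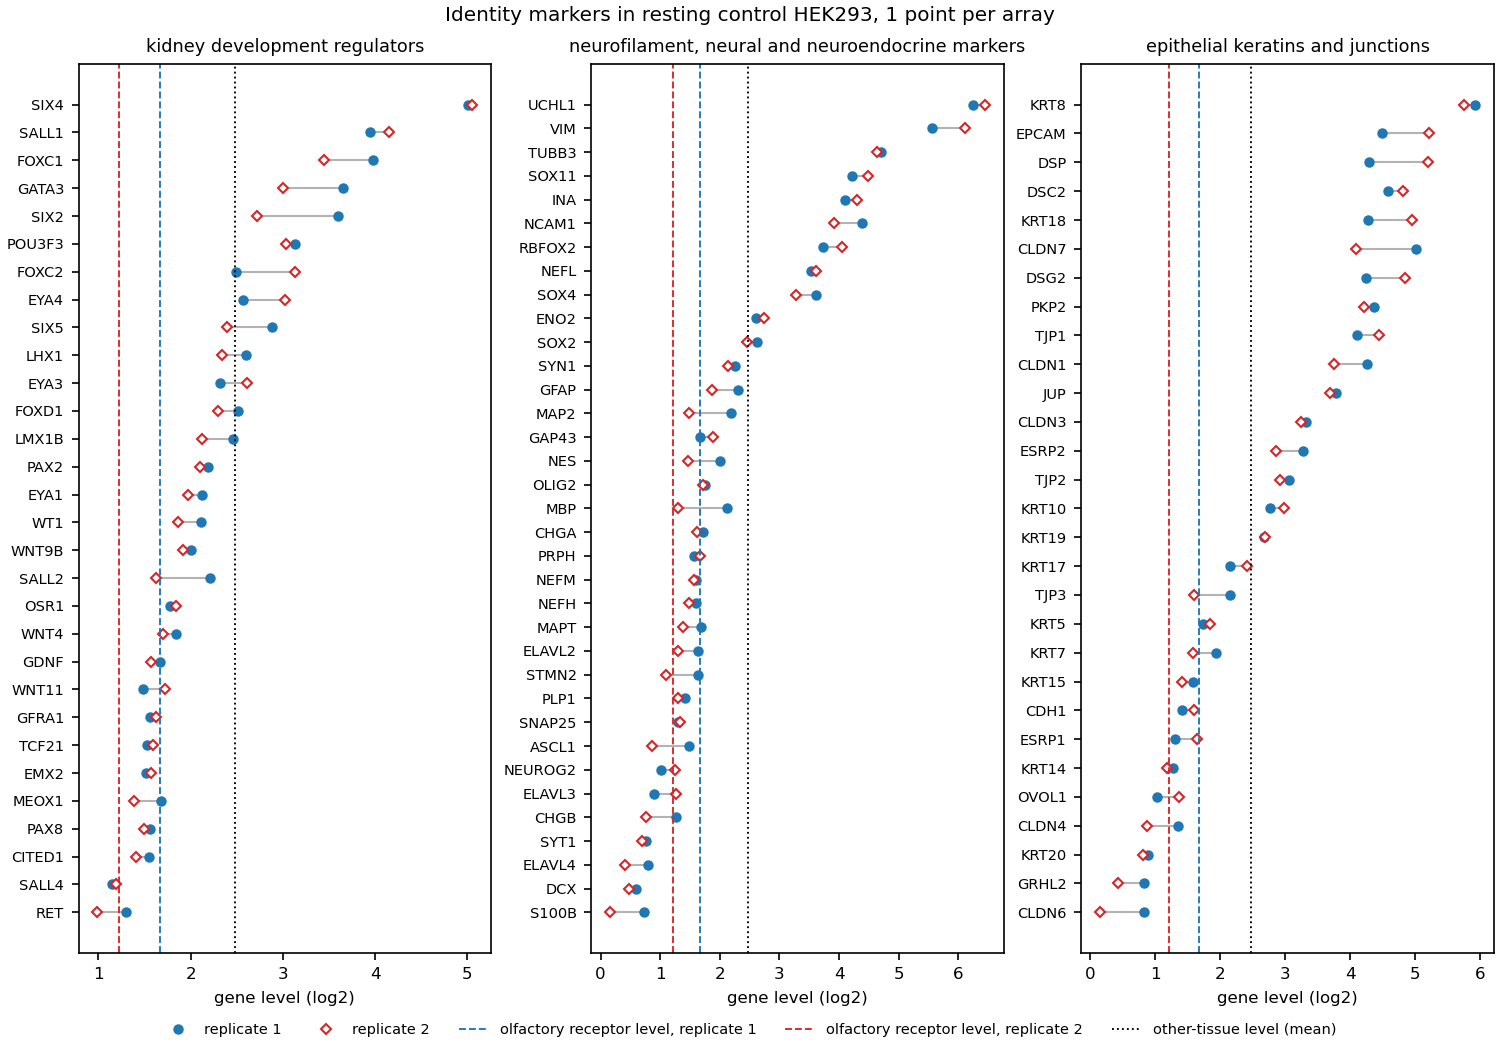
Levels (x axis, log2; blue circle replicate 1, red diamond replicate 2, joined by a grey line) of kidney development regulators, neural and neuroendocrine markers and epithelial keratins and junction genes, with both olfactory receptor levels as dashed lines and the mean other-tissue level as a dotted line. Each panel runs from members well above both floors (SIX4, UCHL1, KRT8) to members under them (RET, S100B, CLDN6), and the gap between the arrays is small beside the range of each list; some list members are not drawn.

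Markers of other tissues were above the lower floor less often than all genes (29.2% against 61.9%). The share by list ran from 0% in taste receptors to 47.1% in pancreas and gut markers. Above the stricter floor, which these markers set, were 4.09% against 34.4% of all genes. The fixed lists held exceptions that the lower floor does not screen out. Hepatocyte markers had 2 of 20 above the lower floor, CYP2E1 (1.96 and 1.81) and AHSG (1.86 and 1.46), with AFP at 0.41 and 0.11 and the clotting factor F9 at 0.08 and 0.05. Endothelial markers had 4 of 12, with the junction protein CLDN5 (3.18 and 2.61) above both floors and PECAM1 (0.82 and 0.12) and EMCN (0.79 and 0.05) near background. Blood cell markers had 11 of 31, with PF4 (3.45 and 2.47), a platelet chemokine, and CD14 (2.73 and 2.38), a monocyte co-receptor, above both floors and the globin gene HBG1 (0.46 and 0.15) under the lower one. Striated muscle markers had 8 of 23, none of them above the stricter floor, with cardiac troponin TNNT2 (2.75 and 2.19) highest. Pancreas and gut markers had 8 of 17, with the hormone gene GAST (3.10 and 2.62) and the WNT pathway receptor LGR5 (2.81 and 2.46) above both floors. Insulin INS (2.48 and 2.05) lay between the floors in each array, while glucagon GCG (0.68 and -0.15) and somatostatin SST (0.07 and 0.45) were under them.

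Photoreceptor and lens genes had 10 of 23 (43.5%) above the lower floor, against 61.9% of all genes. The crystallin CRYBB3 (2.98 and 2.60) alone passed the stricter floor. Defensins had 1 of 14, DEFA5 (1.68 and 1.71), and taste receptors 0 of 10, with TAS2R7 at -0.25 and 0.12. Keratin-associated and cornified envelope genes had 6 of 21, with LCE3D (3.65 and 4.84), a late cornified envelope gene read by 3 probe sets, the highest of all markers of other tissues. In bulk RNA a low level in every cell and a high level in a few cells cannot be told apart. The olfactory receptors themselves had 6 of 235 above their own 95th percentile in both arrays, of which OR1F1 (3.01 and 1.84), OR2S2 (2.51 and 2.14), OR2F2 (2.57 and 1.93), OR5AU1 (1.78 and 1.64) and OR10S1 (1.75 and 1.67) were highest, and 0 above the stricter floor.

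Genes were also grouped by the letters their symbols share. For comparison, 61.9% of all genes were above the lower floor and 34.4% above the stricter one. Initiation factors (symbols starting EIF) had 52 of 54 above the lower floor and 45 above the stricter one, RNA polymerase subunits (POLR) 28 and 22 of 29, and mitochondrial ribosomal proteins (MRPL) 42 and 31 of 44. Zinc finger genes named ZNF had 232 of 436 (53.2%) above the lower floor and 73 above the stricter one, each share under that of all genes. Cytochrome P450 genes (CYP), many of them liver enzymes, had 15 and 5 of 55, and keratin-associated proteins (KRTAP) 30 and 10 of 51. By type, 63.5% of 16568 protein-coding genes and 22.9% of 275 lncRNA genes were above the lower floor. Chromosome 17 had the highest share of genes above the stricter floor (42.6% of 1045) and chromosome 4 the lowest (25.8% of 687) among chromosomes 1 to 22 and X. Gene number, length and probe content differ between chromosomes, and their part was not tested.

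The promoters of high and low genes, taken as sets, differed in base composition. Of the printed windows TUBA1B and ALB followed this difference, while TUBA1C, a high gene with 1 CpG, did not. RefSeq promoters of 250 bases before to 50 after the start were matched for 13244 of 15946 protein-coding genes (83.1%) on the chromosomes used, which leave out chromosomes 8 and Y and mitochondrial DNA. A promoter was called CpG-rich when its ratio of observed CpGs to those its C and G content would give was over 0.6 and its GC content was over 50%. CpG-rich promoters made up 89.2% of the 621 genes in the highest 5% of each array, 86.6% of genes above the stricter floor, 73.8% of the middle tier, 58.6% of those above the lower floor in 1 array and 34.2% of the 3344 near background. Over all 13244 measured genes with a promoter the share was 67.0%, over all 27305 RefSeq promoters 46.8%, and among olfactory receptors 1.65%. The share thus fell at every step down the profile. The genes near background include most olfactory receptors (217 of the 235 measured were in that tier), which also set the lower floor. Their part in the share near background was not tested.

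Short motifs followed in part, searched on both strands of the same 300-base windows. GGGCGG, the core of the GC box bound by SP factors, was in 72.1% of promoters of the highest genes and 35.9% of those near background, against 61.4% of measured genes and 44.6% of all promoters. CGGAAG, a core letter string of ETS sites, was in 41.2% and 13.9%, against 27.0% and 19.9%. Both strings hold a CpG, so their shares are not separate from the CpG content. CCAAT, the box bound by NF-Y, was in 43.5% and 37.5%, against 36.4% and 35.7%. TATAAA, the TATA box, was in 7.41% of promoters of the highest genes, 5.22% of all genes above the stricter floor, 6.10% of the middle tier and 16.3% of genes near background, so its share was not lowest at the top. It was in 8.77% of measured genes, 12% of all promoters and 33.5% of olfactory receptor promoters.

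**Figure D5:**
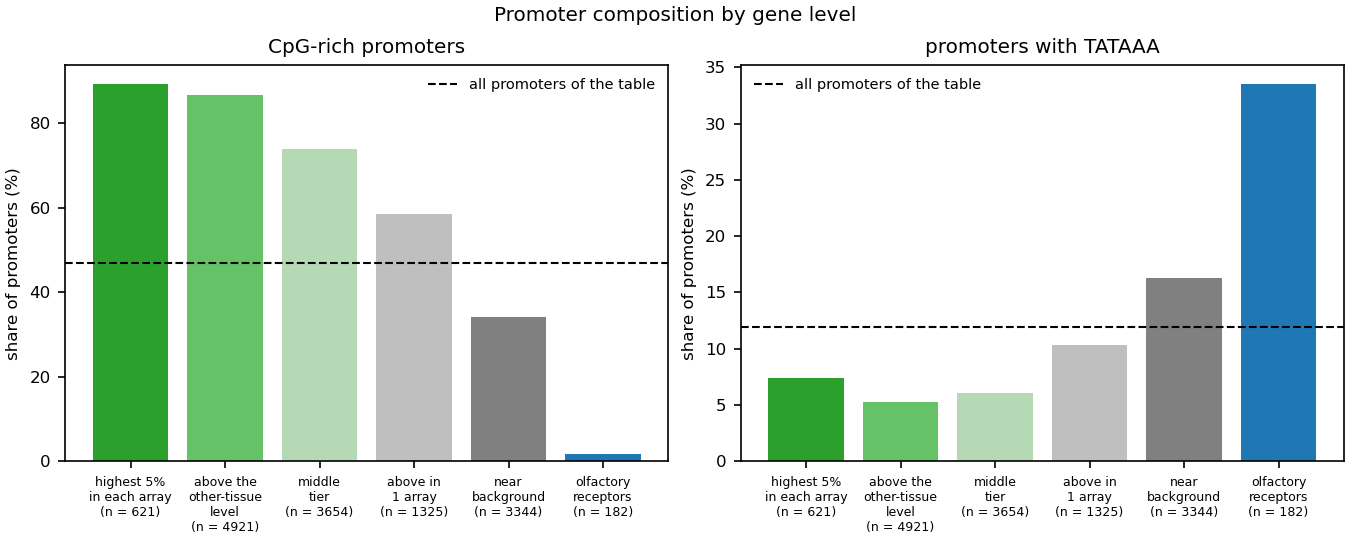
Percent of promoters (y axis, starting at 0) that are CpG-rich (left) or hold TATAAA on either strand (right), by level of the gene in the 2 arrays. Olfactory receptors have a bar of their own, but most are also counted in the near-background bar (217 of 235 measured were in that tier). The dashed line is the share over all 27305 promoters. The CpG-rich share falls from 89.2% to 34.2% and to 1.65% in olfactory receptors, while the TATAAA share is 7.41% in the highest genes, 5.22% above the stricter floor, 16.3% near background and 33.5% in olfactory receptors.

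Exceptions ran in both directions. Of the 621 highest genes with a promoter, 67 were not CpG-rich, among them LDHB, TUBA1C and RPL35A (8.67 and 8.68), whose window held 13 CpGs at a GC content of 49%. TUBA1C is counted by the RefSeq start printed above, whose use in these cells was not tested. Of the 3344 genes near background, 1143 were CpG-rich. The most CpGs among them were in MAEL (1.07 and 0.69), a germline gene of piRNA control, with 60 in the window, and CACNA1D (1.00 and 0.76), a calcium channel gene, with 56. These 2 were picked by their CpG count.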

How the data were processed

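Total RNA of HEK293 cells was measured on Affymetrix Human Exon ST 1.0 arrays. Per the submitters' processing notes the authors summarised and normalised probe sets with RMA in Affymetrix Expression Console, with versions, probe-set level and genome build not given in the sources used here. The deposited values per probe set were taken as log2 from their range (-1.50 to 13.2 in the arrays used), since no header names the scale, and the deposited group mean equals the mean of the 2 columns within 5e-05.

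The 2 control arrays alone were quantile-normalised, probe sets with 1 gene symbol were summarised per gene (at least 3 probe sets) by median polish of at most 10 iterations, and genes were ranked by the mean. Probe sets with several symbols (35) or none (6645) were left out. Symbols were matched to RefSeq by name (15213), as a synonym on the same chromosome (1954) or not (420). The number of arrays limits the precision, and no test was made because 1 group is described. The summary was tested on simulated data. Python 3.11.15, numpy 2.4.6, pandas 2.3.3, scipy 1.17.1 and matplotlib 3.10.9 were used.

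Members and the 41 lists were chosen with earlier results of these data known. The rule for named genes takes the 30 highest genes, the 5 highest and 3 lowest of each list, any identity, signalling or regulation member, other-tissue members above the lower floor, the 5 highest olfactory receptors, 3 genes on each side of that floor, the 10 largest differences between arrays, and ELL, GAPDH and ACTB. Promoters came from RefSeq (GRCh38.p14). Alternatives changed the summary, the probe-set filter and minimum, the floor and the array used. Some genes of the lists are not reported here.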

Additional observations from a re-analysis of the deposited data

How the results depend on the processing

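The number of genes above the olfactory receptor level was 10893, and with 1 array alone it was 11060 to 12558. The class shares with 1 array alone were 97.1% to 99.0% for machinery, 94.1% to 98.0% for proliferation, 48.4% to 64.7% for identity and 30.4% to 39.2% for other tissues. Under the stricter other-tissue level, added after the data were seen, the count was 6043 and the shares were 90.4%, 77.2%, 24.2% and 4.09% in the same order. At the highest olfactory receptor gene they were 5045, 87.5%, 70.3%, 20.5% and 2.34%. At the floor from taste receptor, defensin and keratin-associated genes they were 7216, 93.6%, 87.1%, 29.5% and 7.02%. With probe sets under the 25th percentile left out they were 5506, 91.3%, 72.3%, 27.0% and 5.38%. At the olfactory receptor median plus 3 median absolute deviations, proliferation moved to 91.1% and other tissues to 18.1%. The mean over probe sets gave 99.4% for machinery and 98.0% for proliferation, and the 75th percentile 99.0% for machinery. A minimum of 1 probe set gave 95.2% for machinery and 20.5% for other tissues. A minimum of 8 gave 100% for machinery, 63.4% for identity and 37.9% for other tissues. The order of these 4 classes held under each of these settings. At the other-tissue level the share of other tissues is fixed by construction, since those genes set the floor. The floor from taste receptor, defensin and keratin-associated genes is likewise built from part of that class. The last place of other tissues under these floors is therefore no support for the order. The cause of the moves was not tested beyond the floor or filter that defines each setting. Besides the 1-array settings, 36 counts, class shares and ranks moved by less than 1 SD between arrays or 1.5 times, and 30 moved by more. Among list counts 325 and 126 did so, and among percentiles of listed genes 4890 and 1385. A change of floor cannot move a percentile or a rank. The percentiles and ranks under the other floors are therefore counted as unmoved by construction, and these totals overstate how stable the percentiles and ranks were.

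Over the other floors the number of genes ran from 5045 to 9259, over the other normalisations from 10620 to 10920 and over the other summaries from 11108 to 11852. Of the 100 highest genes, 77 were shared with the mean over probe sets, 72 with the 75th percentile, 70 with a minimum of 8 probe sets, and 90 and 91 with 1 array alone. The number of arrays, 2, and probe binding limit every level, and a gene near background is not shown to be absent. No paired analysis was possible because 1 group is described and its results come from no test.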

Other observations

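Some genes near background had a minority of probe sets with high signal. Of 3347 genes near background with 8 or more probe sets, 45 had an upper quartile of probe sets over 3. PLA2G10, a secreted phospholipase gene at 1.65 and 1.14, had an upper quartile of 4.35 over 9 probe sets, and SSPN, sarcospan of the dystrophin complex at 0.65 and 0.98, one of 4.25 over 8. FOXP2, a forkhead factor gene at 0.84 and 0.97, had an upper quartile of 3.63 over 23 probe sets. The reverse was common: of 615 genes in the highest 5% with 8 or more probe sets, 494 had at least 1 probe set not above the probe-set floor. These genes were chosen after their values were seen.

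Keratin-associated protein genes, which hair follicles use, varied with how they were grouped. Of 51 genes with symbols starting KRTAP, 30 (58.8%) were above the olfactory receptor level and 10 above the other-tissue level, at a median of 1.94, against 61.9% of all genes above the lower level. In the list of 21 keratin-associated and cornified envelope genes, 6 (28.6%) were above it. The KRTAP genes are short, with a median span of 781 bases against 918 for olfactory receptors, and the part of probe content was not tested.

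Of 6645 probe sets without a gene symbol, 1258 (18.9%) were above the floor set over olfactory receptor probe sets, and of those with 1 symbol 34.7% were.

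The largest differences between the arrays were in genes of few probe sets. H3F3C, a histone H3 variant gene, was at 4.94 and 7.17 on 3 probe sets, and MRPS7, a mitochondrial ribosomal protein gene, at 5.57 and 7.79 on 6. CORO1C, an actin-binding coronin gene, was at 3.84 and 5.96 although it has 13 probe sets. Of the 10 largest differences, C5orf55 (3.32 and 1.29) and the immunoglobulin segment IGLV3-25 (3.34 and 1.42) were higher in replicate 1, and the others, CBWD3, TCAP, C3orf63, SGOL1 and ASF1A among them, in replicate 2.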
